A study of Mus musculus with 48 samples.

Results

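Pre-RPMs, the splenic precursors of red pulp macrophages (RPMs), were compared between mice labelled *Il1rl1*-/- and WT mice by RNA-seq. The 8 libraries of this comparison, 4 per genotype, are those whose labels name pre-RPMs, and they belong to 24 RNA-seq libraries that also cover monocytes and RPMs. The study holds 48 samples in all, and its 24 chromatin accessibility samples were not analysed here. WT mice were Balb/c, and the mutant mice were homozygous for a null allele of *Il1rl1* in the germ line on the same background, so that by design all their cells, not only pre-RPMs, lacked the receptor. All mice were 10 weeks old and untreated as far as the labels say. Each library came from cells of 1 mouse, sorted from the spleen as Ly6Glo CD11bhi F4/80lo. Monocytes were sorted as Ly6Glo CD11bhi F4/80- and RPMs as Ly6Glo CD11blo/- F4/80hi. The question was which transcripts of pre-RPMs change when the receptor of IL-33 is lost.

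IL-33 is a cytokine of the IL-1 family that is released from the nucleus of damaged cells. It binds IL1RL1, also called ST2, which pairs with the accessory protein IL1RAP and signals through MYD88, IRAK kinases and TRAF6 to NF-κB and MAP kinases. RPMs engulf aged red blood cells and recycle their iron, and their identity depends on the ETS family factor SPIC. IL1RL1 is also a receptor of basophils, mast cells, eosinophils, and subsets of lymphocytes.

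The total count per library ran from 4363639 to 5105725 in WT and from 3769757 to 5216045 in libraries labelled *Il1rl1*-/-. Levels are given as normalized CPM, counts scaled to a common library size with TMM factors, where TMM corrects for a few genes taking much of a library. A count of 3, taken here as the limit of detection, corresponded to between 0.575 and 0.796 CPM before scaling. *Adgre1*, which encodes F4/80, had 66.6 ± 10.2 CPM in WT and 72 ± 12.4 CPM in libraries labelled *Il1rl1*-/- (mean ± SD, n = 4), and *Itgam*, which encodes CD11b, had 72.5 ± 12.8 and 76.5 ± 10.8 CPM. The neutrophil gene *Ly6g*, the marker of the sort, had at most 2.08 CPM in any of the 8 libraries, whereas the whole neutrophil list of 15 genes summed to between 392.5 and 696.9 CPM. *Spic* had 12.9 CPM in WT pre-RPMs, between 2.58 CPM in WT monocytes and 307 CPM in WT RPMs.

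WT replicate 3 stood apart in its markers. It held 620 summed CPM of erythroid genes and 338 of RPM markers, whereas the other 7 libraries held between 37.1 and 114 and between 120 and 178, respectively. Values without it are given beside several of the gene lists. Over all counts, WT replicate 1 differed most from its group, with a chi-square per degree of freedom between 17.25 and 17.71 against the other WT libraries, which differed from each other by between 6.377 and 10.8. The lincRNA gene *Gm42418*, the most counted gene, took 26.9% of its counts and between 37.9 and 38.8% of theirs.

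*Il1rl1* itself went against the label. Its counts were 18, 15, 13, and 24 in WT replicates 1 to 4 and 50, 76, 42, and 65 in replicates 1 to 4 labelled *Il1rl1*-/-, or 4.19, 3.94, 3.19, and 5.71 CPM against 11.8, 12.9, 12.5, and 12.1 CPM. All 4 libraries labelled *Il1rl1*-/- were above all 4 of WT, and their spread was narrow. The rise was 2.88-fold (log2 fold change 1.53, SE 0.20, edgeR's adjusted p = 0.00107), and it was called in each of the 8 fits that left out 1 library. The counts are per gene, so that which exons the reads came from, and whether they lie in the altered part, could not be seen. Libraries are therefore named by their label, and each direction is one between labels.

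In all, 59 of 10698 genes tested (0.552%) differed between the labels at an adjusted p under 0.05 by edgeR's quasi-likelihood test. Of these, 18 (0.168%) were higher and 41 (0.383%) lower in libraries labelled *Il1rl1*-/-, and the CPM of the groups did not overlap for any of the 59. Among all genes tested, the groups were apart for 260 (2.43%) with higher and 271 (2.53%) with lower CPM in libraries labelled *Il1rl1*-/-. The median log2 fold change of all genes was −0.002. DESeq2 called 70 genes, 52 of them among the 59. With each library left out in turn, between 37 and 68 genes were called, with 37 without WT replicate 1 and 38 without *Il1rl1*-/- replicate 4. Without WT replicate 3, 68 genes were called, 49 of them among the 59, and 30 genes were called in all 8 such fits. When all 24 libraries shared a single fit, and so a single estimate of the spread, 17 genes were called, 10 higher and 7 lower, and 14 of them were among the 59. With the mouse number as a replicate block, 145 genes were called, and with every gene of at least 1 count tested, 265.

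**Figure D1:**
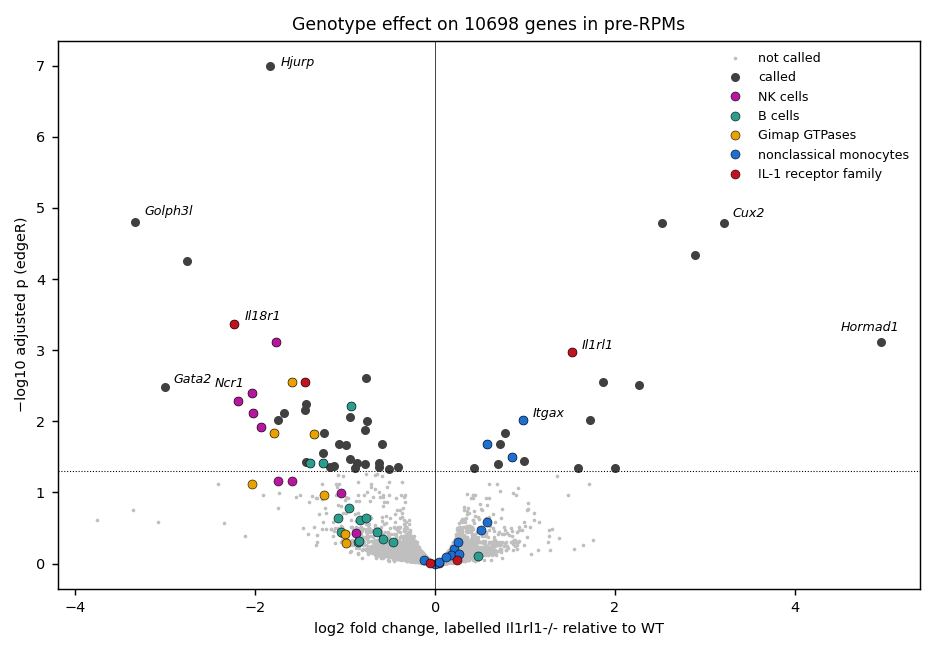
Log2 fold change (libraries labelled *Il1rl1*-/- against WT, x axis) and −log10 of edgeR's adjusted p (y axis) for each of the 10698 genes tested in pre-RPMs, 1 point per gene, with members of 5 gene lists coloured. The coloured NK cell, B cell, and Gimap genes that were called lie on the left, the called nonclassical monocyte genes on the right, and the called IL-1 receptor family genes on both sides.

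Among the called genes with the lowest p were 3 copies of the U2 small nuclear RNA gene, a component of the spliceosome, that moved in opposite directions. *Gm25939* lies at chr1:72255008-72255198 on the plus strand, *Gm25360* at chr1:72226240-72226430 on the plus strand, and *Gm25813* at chr8:52336915-52337105 on the minus strand (GRCm38, 1-based). Each is annotated as an snRNA gene of 191 bases. Their sequences are shown because the counts rest on the few bases that set them apart; they are written 5′ to 3′ as read from the RefSeq genome of that build, and capitals mark the 5 positions at which the 3 copies differ.
Gm25939: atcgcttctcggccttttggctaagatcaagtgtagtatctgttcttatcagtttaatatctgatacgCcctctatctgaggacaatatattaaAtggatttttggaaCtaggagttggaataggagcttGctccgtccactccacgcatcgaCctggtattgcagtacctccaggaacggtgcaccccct
Gm25360: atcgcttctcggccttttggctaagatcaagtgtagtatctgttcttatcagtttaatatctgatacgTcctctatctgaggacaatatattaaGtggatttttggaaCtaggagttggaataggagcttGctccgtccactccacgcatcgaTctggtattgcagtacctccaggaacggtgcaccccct
Gm25813: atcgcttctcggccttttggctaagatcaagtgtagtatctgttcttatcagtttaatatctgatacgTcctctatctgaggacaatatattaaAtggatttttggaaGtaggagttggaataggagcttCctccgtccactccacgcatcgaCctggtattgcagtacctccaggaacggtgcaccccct
Counted from 1 at the 5′ end, *Gm25360* differed from *Gm25939* by C69T, A95G, and C154T, and *Gm25813* by C69T, C109G, and G131C. Identity among the 3 was between 97.91% and 98.43%, and 13 copies of the same length with at least 90% identity to *Gm25939* are annotated in the genome. Pairs that align equally well to several places were not counted, so the level of each copy is uncertain.

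*Gm25939* had 148, 303, 143, and 176 counts in WT and 36, 26, 33, and 35 in libraries labelled *Il1rl1*-/-, a fall of 6.76-fold (log2 fold change −2.76, SE 0.28, edgeR's adjusted p = 5.5e-05). *Gm25360* had 19, 27, 16, and 32 counts in WT and 157, 127, 114, and 219 in libraries labelled *Il1rl1*-/- (log2 fold change 2.52, SE 0.23, adjusted p = 1.64e-05). *Gm25813* had 8, 24, 8, and 16 against 106, 101, 110, and 155 counts (log2 fold change 2.89, SE 0.29, adjusted p = 4.64e-05). In each WT library *Gm25939* had the most counts of the 3 copies, and in each library labelled *Il1rl1*-/- it had the fewest. Summed over the 3 copies, the CPM was 40.7, 92.9, 40.9, and 53.3 in WT and 70.7, 43.1, 76.4, and 76.2 in libraries labelled *Il1rl1*-/-, so that the groups overlapped. All 3 copies were called in each fit that left out 1 library.

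*Il18r1* and *Il18rap*, the subunits of the receptor of IL-18, follow *Il1rl1* on chromosome 1 and fell while *Il1rl1* rose. The 3 genes lie on the plus strand of GRCm38, *Il1rl1* at chr1:40429570-40465415, *Il18r1* at chr1:40465552-40500854, and *Il18rap* at chr1:40515362-40551705, with 136 bases between *Il1rl1* and *Il18r1*. *Il18r1* had 9.53, 13.6, 14.0, and 11.4 CPM in WT and 3.31, 3.39, 2.08, and 1.30 CPM in libraries labelled *Il1rl1*-/-, a fall of 4.73-fold (log2 fold change −2.24, SE 0.27, edgeR's adjusted p = 0.000423). *Il18rap* had 18.1, 22.6, 21.1, and 18.8 CPM against 3.55, 9.84, 8.03, and 7.64 CPM (log2 fold change −1.44, SE 0.21, adjusted p = 0.0028). The groups did not overlap for either gene. Both were called in all 8 fits that left out 1 library, but neither in a single fit of 24 libraries (edgeR's adjusted p = 0.126 for *Il18r1* and 0.112 for *Il18rap*). *Il1rl2*, the receptor of IL-36 that precedes *Il1rl1*, did not pass the filter on low counts. It had 1, 0, 3, and 1 counts in WT and 16, 18, 5, and 12 in libraries labelled *Il1rl1*-/-, a ratio of summed counts per normalized total of 8.87 (95% exact interval from 3.56 to 28.5, which covers counting error only).

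Of the 8 genes of the IL-1 receptor family, 5 were tested, and 1 rose, 2 fell, and *Il1rap* and *Sigirr* were not called, beside 0.168% of all genes that rose and 0.383% that fell. Without WT replicate 3, 6 were tested, and *Il1rl2* was called as well (log2 fold change 3.83, edgeR's adjusted p = 0.0105), so that 2 rose and 2 fell. *Il1rap*, the shared accessory chain, had 9.86 ± 1.45 CPM in WT and 9.71 ± 2.71 CPM in libraries labelled *Il1rl1*-/- (mean ± SD, n = 4). The decoy receptor *Sigirr* had 3.05 ± 0.268 and 3.71 ± 1.34 CPM. *Il1r1* and *Il1r2* did not pass the filter. Among 6 ligands and antagonists, *Il33* had 0 counts in all 8 libraries, and 0 of the 3 tested were called. *Il1b*, the most abundant of them per kilobase of exon, had 24.5 ± 3.42 and 31.3 ± 5.96 CPM (log2 fold change 0.36, SE 0.14, edgeR's adjusted p = 0.462).

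None of 22 genes that act downstream of IL1RL1, all of them tested, was called, and 2 had an unadjusted p under 0.05, as did 8.79% of all genes tested. Their median log2 fold change was 0.05, beside −0.002 over all genes tested. *Nfkbia*, the inhibitor of NF-κB and the most abundant of them per kilobase, had 65.2 ± 7.58 CPM in WT and 68.0 ± 5.64 CPM in libraries labelled *Il1rl1*-/-. *Ikbke* had the largest difference, 15.7 ± 2.39 against 7.51 ± 3.01 CPM (log2 fold change −1.03, SE 0.23, adjusted p = 0.0592), and was called without WT replicate 3 (edgeR's adjusted p = 0.0498).

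**Figure D2:**
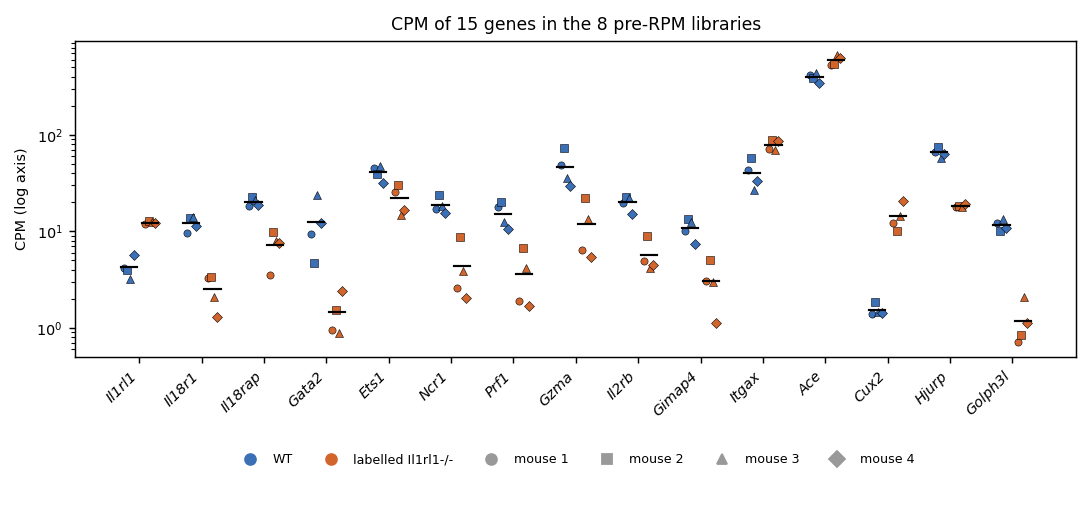
Normalized CPM (log scale, y axis) of 15 genes in each of the 8 pre-RPM libraries, with WT and libraries labelled *Il1rl1*-/- side by side, 1 point per mouse with its number shown by shape, and bars at the group means. Called genes have groups that do not overlap, and *Il1rl1* lies between 3.19 and 5.71 CPM in WT and between 11.8 and 12.9 CPM in libraries labelled *Il1rl1*-/-.

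Of the 23 gene lists examined, that of NK cells had the most falls. Of 17 NK cell markers, 10 were tested, 5 fell and none rose, and their median log2 fold change was −1.76, where 0.383% of all genes fell. Without WT replicate 3, 6 of 11 tested fell, *Tbx21* being the added call (edgeR's adjusted p = 0.0477), with a median of −1.72. *Ncr1*, which encodes the activating receptor NKp46, had 17.0, 23.9, 18.4, and 15.5 CPM in WT and 2.60, 8.82, 3.87, and 2.05 CPM in libraries labelled *Il1rl1*-/-, a fall of 4.10-fold (log2 fold change −2.03, SE 0.31, edgeR's adjusted p = 0.00394). *Il2rb*, the β chain shared by the receptors of IL-2 and IL-15, had 19.8, 22.8, 22.3, and 15 CPM against 4.96, 8.99, 4.16, and 4.47 CPM (log2 fold change −1.77, SE 0.23, adjusted p = 0.000761). Replicate 2 was the highest of the libraries labelled *Il1rl1*-/- for both genes, still below each WT library. In a single fit of 24 libraries none of the 5 was called, with edgeR's adjusted p between 0.12 for *Gzma* and 0.242 for *Il2rb*.

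*Gzma*, *Gzmb*, and *Prf1*, which encode proteins of cytotoxic granules, were among the NK cell markers called. *Gzma*, the granzyme that was the most abundant NK cell marker per kilobase, had 48.8, 72.4, 35.3, and 29.7 CPM in WT and 6.38, 22.4, 13.4, and 5.41 CPM in libraries labelled *Il1rl1*-/- (log2 fold change −1.94, SE 0.34, edgeR's adjusted p = 0.0121; 0.0556 by DESeq2). *Gzmb* fell from 7.21 ± 1.09 to 1.45 ± 0.989 CPM (adjusted p = 0.00518) and *Prf1*, the pore-forming perforin, from 15.3 ± 4.55 to 3.63 ± 2.38 CPM (adjusted p = 0.00771; mean ± SD, n = 4). The receptor *Klrk1* had 18.8 ± 3.07 CPM in WT and 19.4 ± 2.44 CPM in libraries labelled *Il1rl1*-/-. *Tbx21* and *Nkg7* had log2 fold changes of −1.59 and −1.75 (adjusted p = 0.0701 for both). *Klra8* had 0 counts in all 8 libraries, and the other 6 untested markers had low counts.

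Summed over the NK cell markers, the CPM was 176, 223, 157, and 125 in WT pre-RPMs and 47.3, 92.8, 63.1, and 49.4 in libraries labelled *Il1rl1*-/-. In monocytes the mean sum was 1886 in WT and 1501 in libraries labelled *Il1rl1*-/-, and in RPMs it was 68.9 and 33.1. In a sorted bulk sample, fewer cells of a type and less RNA per cell cannot be told apart, and the part of these other cells in the called genes was not tested. The labels name no gate on NK1.1 or CD11c for the sorted cells, whereas the study's flow cytometry counted pre-RPMs among cells low in both. The NK1.1 antibody used there, PK136, is known not to stain NK cells of Balb/c mice. The study's flow cytometry antibodies also include another against a receptor of NK cells, whose use in these gates is not stated. Whether NK cells were among the sorted cells was not tested.

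Of 23 T cell markers, 12 were tested, and 2 fell and none rose, beside 0.383% of all genes that fell, with a median log2 fold change of −0.67. Neither was called in a single fit of 24 libraries. Of these, *Prkcq*, a protein kinase C of T cells, fell from 13.4 ± 3.70 to 5.45 ± 1.80 CPM (mean ± SD, n = 4, adjusted p = 0.0279), but was not called without WT replicates 1 and 2 or *Il1rl1*-/- replicates 1, 2, and 3 in turn, with edgeR's adjusted p between 0.0514 and 0.0999. *Cd3e*, which encodes a chain of the CD3 complex, had 3.37 ± 1.39 and 3.51 ± 0.909 CPM. The summed CPM of the list was 104, 98.7, 74.7, and 85.4 in WT and 55.8, 69.0, 35.4, and 38.0 in libraries labelled *Il1rl1*-/-. *Cd2* was its most abundant gene per kilobase, with 12.9 ± 1.55 and 6.21 ± 3.08 CPM (edgeR's adjusted p = 0.156, or 0.0332 with the replicate block), and no marker was at 0 in all 8 libraries. The part of these cells in the result was not tested.

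B cell genes gave 3 falls and no rise among 14 tested of 16 markers, beside 0.383% of all genes that fell, with a median log2 fold change of −0.85. Of these 14, 13 had an unadjusted p under 0.05, beside 8.79% of all genes tested. *Bank1*, a scaffold of B cell receptor signalling, had 23, 22.6, 21.1, and 22.4 CPM in WT and 12.3, 12.2, 7.73, and 13.4 CPM in libraries labelled *Il1rl1*-/- (log2 fold change −0.94, SE 0.15, edgeR's adjusted p = 0.00601), a fall that was called whichever library was left out but not in a single fit of 24 libraries (adjusted p = 0.0627), where *Ms4a1* and *Pax5* were not called either. *Ms4a1*, which encodes CD20, fell from 9.80 ± 2.06 to 3.63 ± 1.70 CPM and *Pax5*, the B cell identity factor, from 9.93 ± 1.82 to 4.11 ± 1.49 CPM (mean ± SD, n = 4, adjusted p = 0.0387 for both). Both were lost when any one of WT replicates 1, 3, and 4 and *Il1rl1*-/- replicates 1, 3, and 4 was left out, with the highest adjusted p of edgeR 0.128 for *Pax5* and 0.127 for *Ms4a1*. Without WT replicate 3, 1 B cell gene was called.

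The B cell sum did not follow these genes. It was 622, 474, 605, and 504 CPM in WT and 634, 924, 399, and 195 CPM in libraries labelled *Il1rl1*-/-, and no marker was at 0 in all 8 libraries. Its most abundant gene per kilobase, the immunoglobulin light chain gene *Igkc*, had 275 ± 55.8 and 382 ± 265 CPM and overlapped between the groups (edgeR's adjusted p = 0.78). Of 10 plasma cell genes, 8 were tested and 0 called. *Igha*, the most abundant of them, had 177 ± 69.6 CPM in WT and 324 ± 193 CPM in libraries labelled *Il1rl1*-/- (adjusted p = 0.533), with the highest value, 547 CPM, in replicate 2. The part of these cells in the result was not tested.

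All 7 tested members of the Gimap family, GTPases that support the survival of lymphocytes and lie side by side on chromosome 6, had lower means in libraries labelled *Il1rl1*-/-. Of these 7, 3 fell, beside 0.383% of all genes, with a median log2 fold change of −1.34 beside −0.002 over all genes. None of the 3 was called in a single fit of 24 libraries (edgeR's adjusted p from 0.299 to 0.584). *Gimap3* had 8.6, 11.3, 7.35, and 11.2 CPM in WT and 3.07, 3.56, 2.97, and 2.98 CPM in libraries labelled *Il1rl1*-/- (log2 fold change −1.59, SE 0.23, edgeR's adjusted p = 0.0028). *Gimap4* fell from 10.8 ± 2.70 to 3.06 ± 1.62 CPM (adjusted p = 0.0145) and *Gimap6* from 10.3 ± 1.42 to 3.92 ± 1.5 CPM (adjusted p = 0.0149; mean ± SD, n = 4). *Gimap6* was not called without WT replicate 1 or 4 or *Il1rl1*-/- replicate 1 or 4, with edgeR's adjusted p between 0.0519 and 0.0653, and *Gimap5* was called without WT replicate 3 (adjusted p = 0.0498). *Gimap7* did not pass the filter.

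Other called genes that fell included *Itga2*, the integrin chain CD49b, from 10.0 ± 2.25 to 3.71 ± 0.711 CPM (edgeR's adjusted p = 0.00697), and *Cd55*, a membrane inhibitor of complement, from 8.90 ± 1.95 to 2.65 ± 0.998 CPM (adjusted p = 0.00771; mean ± SD, n = 4). Both were called in all 8 fits that left out 1 library, but not in a single fit of 24 libraries (edgeR's adjusted p = 0.242 and 0.164). Lower in libraries labelled *Il1rl1*-/- were also *Ccl5*, *AW112010*, *Ptprcap*, *Acap1*, *Sept1*, *Rasal3*, *Tnik*, *Ripor2*, *Tspan32*, *Hip1r*, *Ninj1*, *Nbeal2*, *Ugcg*, *Slc2a3*, *Lgals1*, *Nol12*, *Gpc1*, and the metabolic enzyme *Idh1*. *Idh1* had 87.0, 78.2, 104, and 82.1 CPM in WT and 54.1, 53.1, 55.6, and 43.8 CPM in libraries labelled *Il1rl1*-/- (log2 fold change −0.77, SE 0.11, adjusted p = 0.0025).

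**Figure D3:**
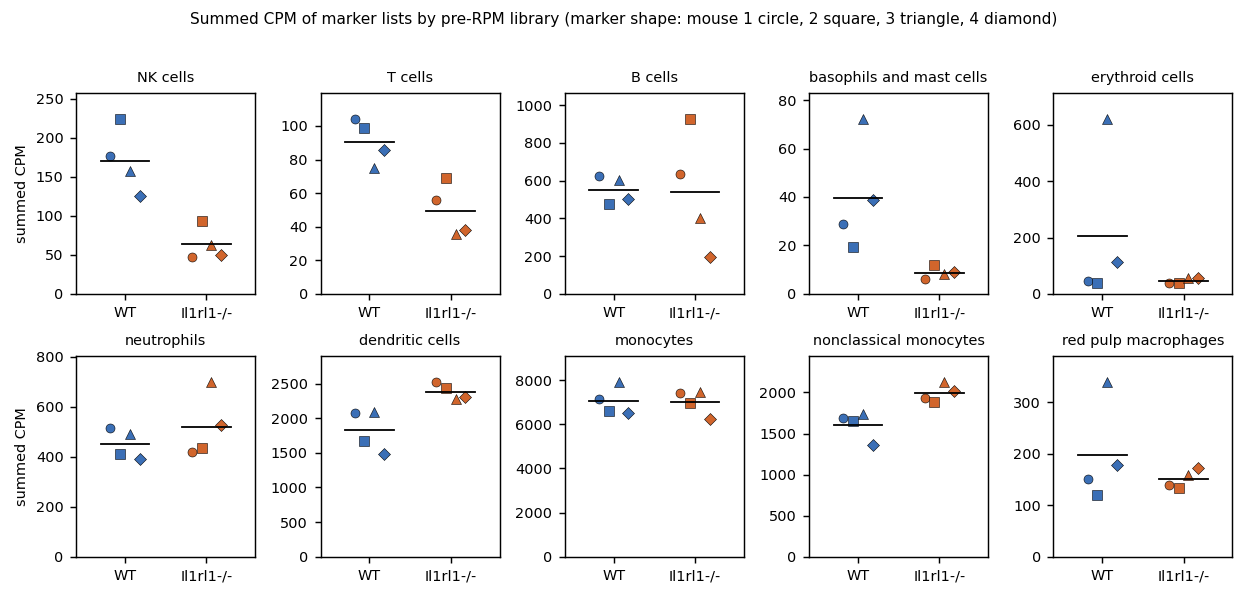
Summed normalized CPM (y axis from 0) of 10 marker lists in each of the 8 pre-RPM libraries, 1 point per library. The NK cell sums lie between 125 and 223 in WT and between 47.3 and 92.8 in libraries labelled *Il1rl1*-/-, and the erythroid sum of WT replicate 3, 620, lies far above the others.

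*Gata2*, a transcription factor of haematopoietic progenitors, basophils, and mast cells, had the largest fall after that of *Golph3l* among the called genes whose mean log2 CPM was at least 1. It had 9.30, 4.72, 23.5, and 12.1 CPM in WT and 0.946, 1.53, 0.892, and 2.42 CPM in libraries labelled *Il1rl1*-/-, a fall of 8.05-fold (log2 fold change −3.01, SE 0.45, edgeR's adjusted p = 0.00329). WT replicate 3 was the highest library, and without it the log2 fold change was −2.51 (adjusted p = 0.00369). Each WT library was above each library labelled *Il1rl1*-/-. *Gata1*, the erythroid and megakaryocyte factor, had 4.65, 3.15, 1.47, and 4.04 CPM against 0.946, 0.678, 2.68, and 1.30 CPM, which overlapped (log2 fold change −1.35, adjusted p = 0.303). *Gata3*, a factor of T cells and innate lymphocytes, did not pass the filter, with 2.33, 1.84, 2.21, and 2.85 CPM in WT and 0.473, 0.509, 1.78, and 0.559 CPM in libraries labelled *Il1rl1*-/-. Of 12 GATA factors and partners, 8 were tested, and 1, *Gata2*, was called, beside 0.552% of all genes. Their most abundant gene per kilobase, *Lyl1*, had 52.8 ± 8.73 and 53.8 ± 2.14 CPM (mean ± SD, n = 4).

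The other markers of basophils and mast cells were low. Summed over the 13 markers, *Gata2* among them, the CPM was 28.8, 19.4, 72, and 38.8 in WT and 5.91, 11.7, 8.33, and 9.13 in libraries labelled *Il1rl1*-/-, and the groups did not overlap. Only 3 of them were tested, and 1, *Gata2*, fell, beside 0.383% of all genes, with a median log2 fold change of −1.92, or −1.25 without WT replicate 3. *Hdc*, which makes histamine, had 3.49, 2.89, 14.7, and 6.66 CPM against 1.18, 1.36, 2.97, and 2.05 CPM (log2 fold change −1.92, edgeR's adjusted p = 0.11). *Cd200r3* had 2.33, 1.31, 7.10, and 4.28 CPM in WT and at most 0.297 CPM in libraries labelled *Il1rl1*-/-. *Fcer1a*, a chain of the IgE receptor, had 0 counts in the 4 libraries labelled *Il1rl1*-/- and at most 1.47 CPM in WT. *Kit* had 2.75 ± 0.96 and 2.94 ± 0.452 CPM. *Tpsb2* had 0 counts in all 8 libraries, and *Cma1* was the most abundant marker per kilobase, with 2.86 ± 0.703 CPM in WT and 0.84 ± 0.95 CPM in libraries labelled *Il1rl1*-/-. The part of these cells in the fall of *Gata2* was not tested.

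Of 16 ETS family factors, 15 were tested and 1, *Ets1*, was called, beside 0.552% of all genes. *Ets1*, a factor of lymphocytes, had 45.8, 39.6, 47.8, and 31.9 CPM in WT and 25.8, 30.4, 14.9, and 16.6 CPM in libraries labelled *Il1rl1*-/- (log2 fold change −0.89, SE 0.19, edgeR's adjusted p = 0.0454). The gap between the groups was narrow, and the call was lost without WT replicate 1, 2, or 3 or *Il1rl1*-/- replicate 1, 3, or 4, with adjusted p between 0.0686 and 0.156, and in a single fit of 24 libraries (edgeR's adjusted p = 0.591). *Spic* had 13, 8.4, 14.0, and 16.2 CPM in WT and 8.98, 11.7, 11.6, and 11.4 CPM in libraries labelled *Il1rl1*-/-, which overlapped (log2 fold change −0.24, edgeR's adjusted p = 0.78). *Spi1*, which encodes PU.1 and was the most abundant ETS factor per kilobase, had 169 ± 16.5 and 178 ± 14.0 CPM.

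The called genes that rose included 3 markers of nonclassical monocytes, the patrolling type, among 13 of the list, all tested. Their median log2 fold change was 0.26, 12 of 13 were above 0, and 0.168% of all genes rose. *Itgax*, which encodes the integrin chain CD11c, had 43.5, 56.9, 26.9, and 33.5 CPM in WT and 71.6, 89.4, 69.9, and 85.4 CPM in libraries labelled *Il1rl1*-/-, a rise of 1.98-fold (log2 fold change 0.98, SE 0.17, edgeR's adjusted p = 0.00964). It was called in all 8 fits that left out 1 library. *Ace*, the angiotensin-converting enzyme, had 420, 391, 440, and 345 CPM in WT and 535, 547, 671, and 626 CPM in libraries labelled *Il1rl1*-/-, a rise of 1.49-fold (log2 fold change 0.57, SE 0.11, adjusted p = 0.0208). *Cd300ld*, an activating receptor of myeloid cells, rose from 20.1 ± 6.22 to 36.3 ± 3.64 CPM (mean ± SD, n = 4, adjusted p = 0.0314). *Ace* was lost without WT replicate 1 or 4 or *Il1rl1*-/- replicate 3 or 4 (edgeR's adjusted p from 0.0581 to 0.0719), and *Cd300ld* without WT replicate 1 or 4 or any library labelled *Il1rl1*-/- (from 0.053 to 0.122). In a single fit of 24 libraries *Itgax* was called (adjusted p = 0.025) and *Ace* and *Cd300ld* were not (edgeR's adjusted p = 0.849 and 0.298). The summed CPM of the list was 1693, 1649, 1732, and 1363 in WT and 1927, 1880, 2122, and 2022 in libraries labelled *Il1rl1*-/-, no marker was at 0, and *Cebpb*, with 238 ± 24.4 and 245 ± 21.0 CPM, was its most abundant gene per kilobase. The part of these cells in the result was not tested.

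Dendritic cell genes had higher means in libraries labelled *Il1rl1*-/- but no call. Of 12 markers, 10 were tested, and each of the 10 had a log2 fold change above 0, with a median of 0.39. Of these 10, 7 had an unadjusted p under 0.05, beside 8.79% of all genes tested. *Zbtb46*, a factor of conventional dendritic cells, had 2.09, 4.20, 1.96, and 1.90 CPM in WT and 8.51, 6.11, 5.06, and 6.15 CPM in libraries labelled *Il1rl1*-/- (log2 fold change 1.35, SE 0.30, edgeR's adjusted p = 0.0583). *Cd74*, the invariant chain of MHC class II and the most abundant of the list per kilobase, had 863 ± 179 and 1126 ± 32.2 CPM (adjusted p = 0.335, or 0.0422 with the replicate block; mean ± SD, n = 4). The summed CPM was 2079, 1667, 2094, and 1484 in WT and 2517, 2436, 2273, and 2301 in libraries labelled *Il1rl1*-/-, no marker was at 0 in all 8 libraries, and the part of these cells in the result was not tested. The C-type lectin gene *Mgl2*, among the genes called higher, had at most 1.39 CPM in WT and between 2.42 and 2.97 CPM in libraries labelled *Il1rl1*-/-.

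The general monocyte markers gave no call. All 13 were tested, their median log2 fold change was 0.07, and their summed CPM was 7170, 6587, 7902, and 6508 in WT and 7401, 6981, 7463, and 6250 in libraries labelled *Il1rl1*-/-. *Lyz2*, the lysozyme gene and the most abundant of them per kilobase, had 4102 ± 210 and 3770 ± 394 CPM (mean ± SD, n = 4). Of 14 RPM markers, 9 were tested and 0 called, with a median log2 fold change of −0.69, or −0.12 over 8 tested without WT replicate 3. *Vcam1*, an adhesion molecule of RPMs, showed how far that library reached, with 2.33, 2.10, 41.9, and 9.04 CPM in WT and between 1.66 and 3.27 CPM in libraries labelled *Il1rl1*-/-. Among 12 erythroid genes, 6 were tested and 0 called, with a median of −2.75, or −0.66 without WT replicate 3. The globin gene *Hbb-bs* had 5.35, 3.67, 270, and 51.4 CPM in WT and 3.31, 3.9, 7.14, and 17.0 CPM in libraries labelled *Il1rl1*-/-.

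Iron handling genes, which RPMs use to recycle haem iron, gave no call among 19 tested of 20. Their median log2 fold change was 0.005 and their summed CPM 1012, 890, 1212, and 983 in WT and 980, 996, 1073, and 1017 in libraries labelled *Il1rl1*-/-. *Fth1*, the heavy chain of ferritin and the most abundant of them per kilobase, had 229 ± 32.5 and 219 ± 8.82 CPM (mean ± SD, n = 4). The iron exporter gene *Slc40a1* had 9.53, 6.30, 28.2, and 19.5 CPM in WT and 6.38, 6.28, 8.92, and 10.4 CPM in libraries labelled *Il1rl1*-/-, which overlapped (edgeR's adjusted p = 0.35), and the log2 fold change was −0.57 without WT replicate 3. *Hmox1*, which encodes haem oxygenase 1, had 17.9, 13.9, 64.2, and 26.4 CPM against 18.7, 20.7, 20.2, and 16.8 CPM (log2 fold change −0.69, edgeR's adjusted p = 0.59, and −0.04 without WT replicate 3). WT replicate 3 was the highest library for both genes. Of 22 phagocytosis receptors, 15 were tested, with a median of 0.11, and *Itgax* was called, beside 0.168% of all genes that rose. Without WT replicate 3, *Pros1*, which encodes protein S, was called too (log2 fold change 0.73, edgeR's adjusted p = 0.0219), and the median was 0.16. Their most abundant gene per kilobase, *Fcer1g*, had 155 ± 22.6 and 156 ± 5.71 CPM.

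Interferon-stimulated genes were all 20 tested and 0 were called, with a median log2 fold change of 0.14, and *Irf7*, the most abundant per kilobase, had 87.6 ± 12.7 and 101 ± 24.5 CPM (mean ± SD, n = 4). Among immediate early and AP-1 genes, 13 of 20 were tested and 0 called, with a median of 0.08, and *Klf2*, the most abundant, had 148 ± 14.0 and 139 ± 17.0 CPM. Neither list held a gene with an unadjusted p under 0.05, beside 8.79% of all genes tested. For neutrophil genes, 12 of 15 were tested and 0 called, with a median of 0.17, or 0.33 without WT replicate 3. Of these 12, 8 had a log2 fold change above 0 and 4 below, and 6 had an unadjusted p under 0.05. These 6 were *Ngp*, *Ltf*, *S100a9*, *Camp*, and *S100a8*, with log2 fold changes of 1.02, 0.99, 0.73, 0.66, and 0.59, and *Padi4*, with −0.90. The granule gene *Retnlg*, the most abundant per kilobase, had 97.7 ± 45.8 and 67.7 ± 34.9 CPM. For eosinophil genes, 7 of 9 were tested and 0 called, with a median of −0.41, or −0.69 without WT replicate 3. Of these 7, 5 had a log2 fold change below 0 and 2 above. The ribonuclease gene *Ear2*, the most abundant per kilobase, was among those above 0, with 19.4 ± 3.12 and 22.8 ± 2.74 CPM.

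**Figure D4:**
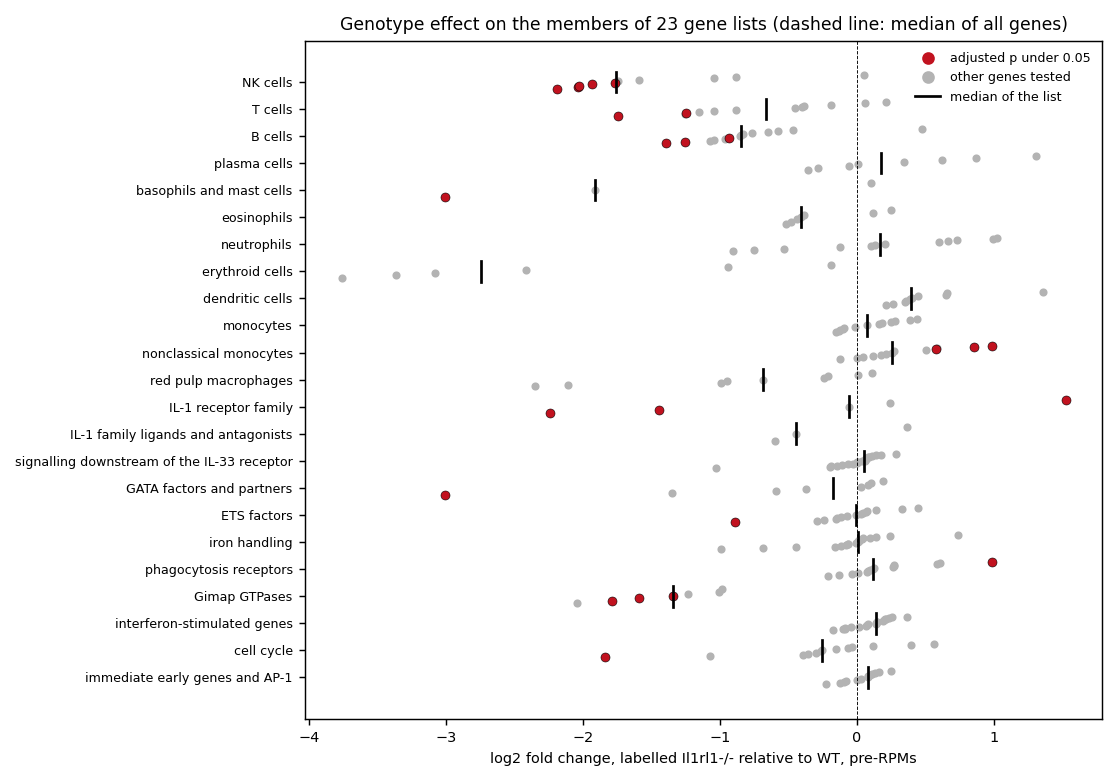
Log2 fold change in pre-RPMs (libraries labelled *Il1rl1*-/- against WT, x axis) of the tested members of 23 gene lists (y axis), 1 point per gene, with called genes in red and a bar at each list's median. The medians of NK cell and Gimap genes, −1.76 and −1.34, lie left of the median of all genes, −0.002, and the low medians of erythroid and RPM markers moved to −0.66 and −0.12 without WT replicate 3. In that fit 8 RPM markers were tested instead of 9.

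The cell cycle list held a single call among 13 tested of 24 genes, beside 0.552% of all genes called, with a median log2 fold change of −0.26, or −0.16 over 14 tested without WT replicate 3. It was *Hjurp*, the chaperone that loads the centromeric histone CENP-A, and it had the lowest p of all genes. *Hjurp* (chr1:88262471-88277633, minus strand) had 66.3, 74.5, 57.8, and 64.0 CPM in WT and 17.7, 18.3, 17.9, and 19.2 CPM in libraries labelled *Il1rl1*-/-, a fall of 3.58-fold (log2 fold change −1.84, SE 0.11, edgeR's adjusted p = 1e-07). *Hjurp* was also the most abundant gene of the list per kilobase. *Cenpa*, which encodes CENP-A, had 7.65 ± 1.11 and 3.63 ± 0.759 CPM (log2 fold change −1.08, SE 0.24, adjusted p = 0.0568). The proliferation marker *Mki67* had 15.5 and 12.6 CPM (edgeR's adjusted p = 0.79).

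*Golph3l* and *Cux2* had the largest fall and the largest rise among called genes whose mean log2 CPM was at least 1. *Golph3l*, a Golgi phosphoprotein gene, had 12.1, 9.97, 13.5, and 10.7 CPM in WT and 0.709, 0.848, 2.08, and 1.12 CPM in libraries labelled *Il1rl1*-/-, a fall of 10.1-fold (log2 fold change −3.33, SE 0.29, edgeR's adjusted p = 1.57e-05). *Cux2*, a homeobox transcription factor known from neurons, had 1.40, 1.84, 1.47, and 1.43 CPM in WT and 12.3, 10.2, 14.3, and 20.7 CPM in libraries labelled *Il1rl1*-/-, a rise of 9.25-fold (log2 fold change 3.21, SE 0.29, adjusted p = 1.64e-05). *Hormad1*, which encodes a protein of the meiotic chromosome axis, had 1, 0, 0, and 0 counts in WT and 10, 18, 10, and 14 in libraries labelled *Il1rl1*-/- (edgeR's adjusted p = 0.000761), a ratio of summed counts per normalized total of 45.2 with a 95% exact interval from 7.77 to 1.82e+03, which covers counting error only. *Hormad1* (chr3:95559677-95587671) and *Golph3l* (chr3:95588934-95619247) both lie on the plus strand, 1262 bases apart, and moved in opposite directions.

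Further rises were those of *Adam23*, *Mfap1a*, *Pou6f1*, *Adgrl3*, and *Dst*. *Adam23*, a surface protein of the metalloprotease-like family, had 4.88, 6.30, 1.47, and 1.67 CPM in WT and 12.8, 15.1, 14.9, and 25.4 CPM in libraries labelled *Il1rl1*-/-, a rise of 4.81-fold (log2 fold change 2.27, SE 0.34, edgeR's adjusted p = 0.00309; 0.154 in a single fit of 24 libraries). *Mfap1a*, whose product belongs to the spliceosome, rose from 2.41 ± 0.979 to 8.84 ± 0.722 CPM (adjusted p = 0.0028), and *Pou6f1*, a POU domain factor, from 2.01 ± 0.70 to 6.59 ± 1.24 CPM (adjusted p = 0.00964; mean ± SD, n = 4). *Mfap1a* has a near-identical copy in the genome, *Mfap1b*, so its level is uncertain. *Mfap1b* had a log2 fold change of 1.47 (SE 0.37) but was not called (edgeR's adjusted p = 0.108). *Adgrl3*, an adhesion receptor, rose from 2.17 ± 1.17 to 6.44 ± 1.62 CPM (edgeR's adjusted p = 0.0454) and *Dst*, a linker of the cytoskeleton, from 10.9 ± 4.06 to 21.5 ± 2.87 CPM (adjusted p = 0.0366). Both were lost without WT replicate 1 or 4 or *Il1rl1*-/- replicate 1, 2, or 4, *Adgrl3* also without *Il1rl1*-/- replicate 3 and *Dst* also without WT replicate 2, with the highest adjusted p of edgeR 0.177 and 0.122, respectively. *Plcl1*, *Nectin1*, *Dpp4*, and *Abca9* were also called higher.

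By position, chromosome 1, which carries *Il1rl1*, held 12 of the 59, or 1.81% of its 663 genes tested, 5 of them higher and 7 lower, beside 0.552% over all genes. They were *Dst*, *Il1rl1*, *Il18r1*, *Il18rap*, *Plcl1*, *Adam23*, *Idh1*, *Gm25360*, *Gm25939*, *Hjurp*, *Gpc1*, and *Cd55*. Within 5 Mb of *Il1rl1*, 3 of 46 genes tested were called, the 3 receptor genes already named. Over all chromosomes, 17 called genes formed 13 pairs within 500000 bases of each other, and in 5 of these pairs the genes moved in opposite directions. Runs of neighbours, such as the Gimap genes and the 3 receptor genes, gave several pairs each. How often genes tested lie this close in general was not counted. Besides the pairs already given, *Lgals1* and *Nol12*, 4467 bases apart, both fell, and so did *Gimap4* and *Gimap6*, 9521 bases apart.

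Promoter windows of RefSeq (GRCm38.p6), from 250 bases before to 50 bases after a start site, were searched on both strands for AGATAA and TGATAA, which GATA factors bind, and for CCGGAAGT and AGGAAGTG, which ETS factors bind. A window was matched by symbol for 28 of the 41 genes that fell and 15 of the 18 that rose. A gene was counted if any of its windows held a motif, so genes with more start sites had more chances. A GATA motif was present for 4 of 28 genes that fell (14.3%) and 5 of 15 that rose (33.3%), beside 12.1% of the 7891 genes tested that have a window and 21% of the 27025 genes in the table. The 5 that rose were *Adgrl3*, *Dpp4*, *Dst*, *Itgax*, and *Il1rl1*, and the 4 that fell were *Gimap4*, *Il18rap*, *Ripor2*, and *Tspan32*. An ETS motif was present for 2 of 28 (7.14%) and 2 of 15 (13.3%), beside 15.5% of genes tested and 8.8% of all, and these were *Hjurp* and *Nol12* among falls and *Mfap1a* and *Plcl1* among rises. These letters are a description of the windows and not of binding.

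The same comparison in the other cell types called fewer genes by edgeR, 7 of 11405 in monocytes (0.0614%) and 26 of 11150 in RPMs (0.233%). DESeq2 called 26 in monocytes and 60 in RPMs beside its 70 in pre-RPMs, and whether the numbers differ was not tested. All 7 genes called in monocytes were also called in pre-RPMs, and these were *Il1rl1*, *Cux2*, *Gm25360*, *Gm25813*, *Hormad1*, *Hjurp*, and *Golph3l*, while 9 of the 59 were called in RPMs. *Hjurp* fell in each cell type, with log2 fold changes of −1.34, −1.84, and −1.89 in monocytes, pre-RPMs, and RPMs, and *Cux2* rose by 3.68, 3.21, and 3.10. *Golph3l* changed by −2.98, −3.33, and −1.85. These effects share no library between cell types, but the cells came from the same mice. The main interaction tests held no term for the mouse and so treated libraries of the same mouse as independent.

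A difference in the genotype effect between pre-RPMs and monocytes was called for 0 of 11960 genes (0%) by edgeR's interaction test at an adjusted p under 0.05, with 453 genes at an unadjusted p under 0.05 and 0 by DESeq2. The NK cell genes, which fell in pre-RPMs, had smaller log2 fold changes in monocytes, −0.31 for *Ncr1* and −0.27 for *Il2rb*, and none of them passed this test of the difference. The IL-18 receptor genes had log2 fold changes of −0.78 for *Il18r1* and −0.36 for *Il18rap* in monocytes, where WT held 94.0 ± 44.7 and 188 ± 73.7 CPM (mean ± SD, n = 4). Their log2 fold changes in RPMs were −2.05 and −1.22 (edgeR's adjusted p = 0.2 and 0.389), and of 4 family members tested there 1, *Il1r1*, was called, with a log2 fold change of −1.53 (adjusted p = 0.00501).

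Between pre-RPMs and RPMs, the genotype effect differed for 13 of 12150 genes (0.107%) by edgeR, 5 with a higher and 8 with a lower log2 fold change in pre-RPMs. This balance turned with other settings, to 23 higher and 13 lower by DESeq2. It turned to 25 higher and 11 lower with each single mouse as a block, which pairs the cell types of a mouse. Fewer were called in a single fit of 24 libraries, 3 (1 higher, 2 lower). With at least 10 counts in every library, 5 were called, all lower. *Il1rl1* was among the 13. In RPMs it had 1.94 ± 0.80 CPM in WT and 0.826 ± 0.482 CPM in libraries labelled *Il1rl1*-/- (mean ± SD, n = 4), and the log2 fold change in pre-RPMs was higher by 2.67 (SE 0.48, edgeR's adjusted p = 0.0197). *Adam23* and *Pou6f1* rose in pre-RPMs and had log2 fold changes of −0.31 and −0.13 in RPMs, differences of 2.56 (SE 0.40, adjusted p = 0.00647) and 1.84 (SE 0.27, adjusted p = 0.00486). The inflammatory calcium-binding proteins *S100a8* and *S100a9* were not called in pre-RPMs, where their log2 fold changes were 0.59 and 0.73 (edgeR's adjusted p = 0.218 and 0.228, or 0.0332 and 0.0213 with the replicate block). *S100a9* fell in RPMs, from 5.55 ± 1.52 to 0.977 ± 0.55 CPM (edgeR's adjusted p = 0.00816).

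Lower in pre-RPMs than in RPMs were the effects on *Nrp2*, *Snx9*, *Gabbr1*, *Nck2*, *Bank1*, *Abca1*, *Arhgap10*, and *Adcy3*. *Nrp2*, a receptor of semaphorins, had 17.4, 14.2, 24.5, and 15.7 CPM in WT pre-RPMs and 12.5, 11.2, 6.54, and 10.6 CPM in libraries labelled *Il1rl1*-/- (log2 fold change −0.79, edgeR's adjusted p = 0.11). In RPMs it rose, from 2.71 ± 0.788 to 10.6 ± 2.37 CPM (log2 fold change 1.92, adjusted p = 0.00339), so the difference was −2.72 (SE 0.34, adjusted p = 0.00119). *Snx9*, a sorting nexin of endocytosis, rose in RPMs with a log2 fold change of 1.51 (adjusted p = 2.81e-05) and had 0.13 in pre-RPMs (edgeR's adjusted p = 0.877). *Gabbr1*, a subunit of the GABA-B receptor, and *Bank1* fell in pre-RPMs and had log2 fold changes of −0.07 and 0.10 in RPMs. *Gabbr1* had 8.37, 9.45, 7.35, and 10.9 CPM in WT pre-RPMs and 3.07, 3.22, 4.16, and 2.98 CPM in libraries labelled *Il1rl1*-/- (log2 fold change −1.44, SE 0.23, edgeR's adjusted p = 0.00566; 0.103 in a single fit of 24 libraries).

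**Figure D5:**
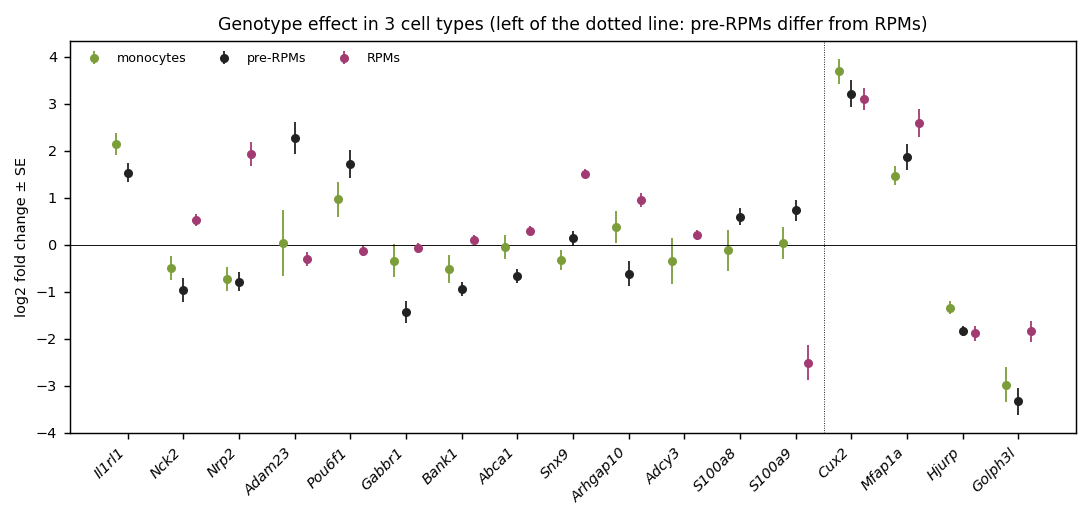
Log2 fold change (libraries labelled *Il1rl1*-/- against WT, with SE bars, y axis) in monocytes, pre-RPMs, and RPMs for the 13 genes whose effect differed between pre-RPMs and RPMs and for 4 genes with the same direction in each cell type, n = 4 libraries per group. *Hjurp* lies at −1.34, −1.84, and −1.89, whereas *Nrp2* lies at −0.79 in pre-RPMs and 1.92 in RPMs.

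Depth and composition were compared between labels over 4 measures. With 4 libraries a group the smallest p that the permutation test allows is 0.0286, and adjusted over 4 measures a single measure that differed could not go below 0.114, so that these p-values show neither a difference nor its absence. The total count was 4.728e+06 ± 3.064e+05 in WT and 4.598e+06 ± 6.859e+05 in libraries labelled *Il1rl1*-/- (mean ± SD, n = 4, exact 2-sided permutation test, p = 0.7143). The number of genes detected was 1.976e+04 ± 202.2 and 2.006e+04 ± 960.9 (n = 4, exact 2-sided permutation test, p = 0.6). A single gene, *Gm42418*, which overlaps ribosomal RNA, took 35.4 ± 5.64% of counts in WT and 28.7 ± 3.41% in libraries labelled *Il1rl1*-/- (n = 4, exact 2-sided permutation test, p = 0.1143, adjusted over 4 measures 0.2857). The TMM factor, which offsets such shares, was 0.93 ± 0.0983 and 1.08 ± 0.116 (n = 4, exact 2-sided permutation test, p = 0.1429). Leaving the 10 most counted genes out of the library sizes gave 59 calls, 58 of them among the same 59 genes.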

How the data were processed

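RNA-seq libraries of splenic pre-RPMs, 4 from WT mice and 4 labelled *Il1rl1*-/-, were compared, with 16 libraries of monocytes and RPMs beside them. Per the study's methods, trimming used cutadapt 2.5, alignment (GRCm38, Ensembl 95) used STAR 2.5.1, and counting used featureCounts 1.6.2. The counts are of pairs on the sense strand of exons, summed by gene name. The submitters' processing notes name cutadapt 2.8 and the build GRCh38 instead, whereas the file headers name GRCm38. What the authors deposited are raw counts of 54735 genes per library. Total RNA was used, and the 10 most counted genes made up 54.8 to 68.6% of a pre-RPM library, which limits the depth left for the others. Gene positions are those of the files' annotation, and promoter windows and U2 sequences came from RefSeq.

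The test within pre-RPMs was edgeR's quasi-likelihood F test (edgeR 4.0.16 with limma 3.58.1 in R 4.3.3), after TMM scaling and filterByExpr and without covariates, and p was adjusted by Benjamini-Hochberg over every gene that passed the filter. SEs follow from the log2 fold change and its F statistic. CPM used TMM factors over 24 libraries. Differences between cell types were tested as interactions over 16 libraries, and library measures by exact permutation in SciPy 1.17.1. The main interaction fits held no term for the mouse, so the pairing of cell types within a mouse was ignored in them. As alternatives, DESeq2 1.42.0 (the study's tool), RLE size factors, library sizes without the 10 most counted genes, other filters, a fold threshold, a single fit of 24 libraries, the mouse number as a block, and fits without 1 library were run. Within pre-RPMs the block joined libraries of the same number across genotypes. In the interaction tests it was the single mouse, and so paired its cell types. No 2 libraries of a group were identical or agreed within sampling noise, and each came from its own mouse.

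Named are *Il1rl1*, *Gata1*, *Gata2*, *Gata3*, *Ets1*, and *Spic*. To these were added the 10 largest rises and 15 largest falls among calls without overlap between groups and with a mean log2 CPM of at least 1. The called genes and the most abundant gene of each list, called genes within 5 Mb of *Il1rl1*, and genes called in interaction tests were also named. Other genes named were chosen after their values were seen. The result on 1 called gene is not reported here. The members and lists were chosen with earlier results of these data known.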

Additional observations from a re-analysis of the deposited data

Results flagged for a closer look

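Among 184 groups of 4 libraries examined for a value far from the others, 12 (6.52%) held one, where chance gives about 1 in 20. In WT pre-RPMs, replicate 2 lay apart with 1.84 CPM of *Cux2*, 79.5 CPM of *Gm25939*, 65.9 CPM of *Lyl1*, and 31.5 summed CPM of IL-1 family ligands and antagonists. WT replicate 3 lay apart with 620 summed CPM of erythroid genes, WT replicate 4 with 20067 genes detected, and WT replicate 1 with 26.9% of counts on *Gm42418*. Among libraries labelled *Il1rl1*-/-, replicate 2 lay apart with 8.99 CPM of *Il2rb*, 3.56 CPM of *Gimap3*, and 33.8 summed CPM of Gimap genes, replicate 3 with 1.78 CPM of *Gata3*, and replicate 1 with 8.98 CPM of *Spic*. Each of these *Il2rb* and *Gimap3* values stayed below every WT library.

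The effect of genotype differed between pre-RPMs and RPMs for 13 genes by edgeR's interaction test with Benjamini-Hochberg adjustment. The log2 fold change in pre-RPMs minus that in RPMs was 3.73 for *S100a8* (adjusted p = 0.0112), 3.23 for *S100a9*, 2.67 for *Il1rl1*, 2.56 for *Adam23*, and 1.84 for *Pou6f1*. It was −3.02 for *Adcy3* (adjusted p = 0.044), −2.72 for *Nrp2*, −1.58 for *Arhgap10*, −1.51 for *Nck2*, −1.39 for *Snx9*, −1.39 for *Gabbr1*, −1.05 for *Bank1*, and −0.98 for *Abca1*. *Adcy3* did not pass the filter in pre-RPMs alone, nor *Il1rl1* and *S100a8* in RPMs alone, so these 3 differences rest on low counts in that cell type.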

How the results depend on the processing

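Of the 59 calls between genotypes in pre-RPMs, DESeq2 called 52, RLE size factors 59, and testing every gene with at least 1 count 59. That last setting gave 265 calls in all (78 higher, 187 lower), at least 10 counts in every library gave 37, a log2 fold change above 1 gave 36, and all 24 libraries in a single fit gave 17. Leaving out each library gave from 37 to 68. With the mouse number as a replicate block, 145 genes were called (46 higher, 99 lower), among them all 59. The numbers were not taken to pair the mice: WT and *Il1rl1*-/- libraries of the same number came from different mice and share an i5 index, but the labels name no shared litter, batch, or day, and they deviated together from their means with r between 0.0525 and 0.204, with 7 of 8 correlating best with their own number.

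The difference from monocytes gave 0 calls under all alternatives run except at least 1 count, with 78. The difference from RPMs gave 13 calls (5 higher, 8 lower), and 36 by DESeq2 (23 higher, 13 lower). It gave 224 with at least 1 count (146 higher, 78 lower) and 5 with at least 10 counts in every library (all lower). A single fit of 24 libraries gave 3 (1 higher, 2 lower). A block for each single mouse, which pairs its cell types and does not join the genotypes, gave 36 (25 higher, 11 lower). With each pre-RPM library left out, from 11 to 16 were called, and RPM libraries were not left out. Without the 10 most counted genes, the difference in total count (*Il1rl1*-/- minus WT) turned from −1.301e+05 to 2.412e+05 and that in the TMM factor from 0.1546 to −3.25e-05.

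Of 35 named genes called, 22 were no longer called in a single fit of 24 libraries, *Ncr1*, *Il18r1*, and *Bank1* among them, and 9 lost the call in some fit that left out 1 library. Of the 27 genes not called that the naming rule gave, 6 were called with the replicate block (*Cd2*, *Hbb-bs*, *Cd74*, *Abca1*, *S100a8*, and *S100a9*), 10 with at least 1 count (these 6, *Igkc*, *Igha*, *Retnlg*, and *Nrp2*), and 2 without 1 library (*Hbb-bs* and *S100a8*). Outside that rule, *Ikbke*, *Tbx21*, *Gimap5*, *Pros1*, and *Il1rl2* were called without WT replicate 3. The direction turned for 7 genes, none of them called, when 1 library was left out. Over these fits the log2 fold change ran from −0.043 to 0.804 for *Igkc*, from −0.011 to 0.091 for *Cebpb*, from −0.001 to 0.210 for *Adgre1*, from −0.020 to 0.152 for *Lyl1*, from −0.127 to 0.032 for *Fth1*, from −0.046 to 0.107 for *Fcer1g*, and from −0.013 to 0.244 for *Snx9*. The cause of these changes was not tested, beyond that fewer genes or libraries entered a fit.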
